A study of Mus musculus with 4 samples.

Results

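TCRβ clones were grouped by the D segment at the centre of their CDR3, TRBD1 or TRBD2, with the clones that had no D hit kept as a group of their own for comparison. A clone is a distinct TCRβ sequence assembled from reads by MiXCR, and the CDR3 (complementarity-determining region 3) is the loop encoded across the joins of the V, D and J segments. Each clone took the first of the D hits listed for it, without its allele. Of 378794 clones with a CDR3, 158527 were called TRBD1, 115674 were called TRBD2 and 104593 had no D hit, so that 274201 carried a D call. The calls served as labels only, and no measured difference between genotypes was used to form the groups.

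The libraries came from splenic CD4 T cells of 2 WT mice and 2 Tet2/3 DKO mice with a mean age of 25 days, sorted as live TCRβ+ CD4+ CD25- cells that did not bind the CD1d tetramer loaded with αGalCer. TET2 and TET3 are dioxygenases that oxidise 5-methylcytosine in DNA. Tet2/3 DKO stands for Tet2-/- Tet3 flx/flx CD4Cre, in which Tet2 is missing from all cells and Tet3 is deleted only where Cre is made from the CD4 promoter. That promoter acts in thymocytes from the double-positive stage on, which follows the stage at which TCRβ genes rearrange. The labels name the libraries as biological replicates. The tables hold receptor sequences only, so the sorted cell type could not be checked against other marker genes.

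The 4 libraries held 365421 to 569678 TCRβ reads and 81127 to 104017 clones. No CDR3 was covered in 774 to 1071 clones per library, with 0.735% to 1.00% of the reads, and these were left out. The 5′ RACE kit was used without molecular identifiers, so reads are not independent molecules and intervals cover counting error only. In shares of reads, more cells with a chain and more TCRβ RNA per cell cannot be told apart, and each clone was therefore counted once unless reads are named.

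A TCRβ gene is assembled in developing thymocytes in a fixed order, a D segment to a J segment first and a V segment to the joined DJ next. The RAG recombinase cuts beside each segment, nucleases trim the ends, and opening of the hairpin ends can leave a few bases that are the mirror image of the segment's end. Terminal deoxynucleotidyl transferase adds bases that no segment encodes. TRBD1 lies upstream of both J clusters, so deletion can join it to TRBJ1 or TRBJ2 segments. TRBD2 lies downstream of the TRBJ1 cluster and upstream of the TRBJ2 cluster, so deletion joins it to TRBJ2 segments. Both D segments are rich in G and encode mostly glycine, a small and flexible residue.

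The germline sequences below were read from the CDR3s of the clones that held a whole D segment, 2773 clones for TRBD1 and 1974 for TRBD2. They are shown because the calls, lengths and reading frames that follow all rest on them. They run 5′ to 3′ in the direction of transcription, and the capital letter marks base 6, the first base at which the segments differ.
TRBD1: gggacAgggggc
TRBD2: gggacTgggggggc

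TRBD1 has 12 bases and TRBD2 has 14. They share their first bases, differ at base 6 (A6T, TRBD1's base first, counted from 1 at the 5′ end), and TRBD2 has a longer run of G after it. RefSeq places TRBD1 at chr6:41533201-41533212 and TRBD2 at chr6:41542163-41542176 in GRCm38.p6, with the same lengths as the sequences above. On that build 651 bases separate TRBD1 from TRBJ1-1, 6475 bases separate TRBJ1-7 from TRBD2, and 577 bases separate TRBD2 from TRBJ2-1.

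Read in its 3 frames from base 1, 2 or 3, TRBD1 encodes Gly-Thr-Gly-Gly, Gly-Gln-Gly and Asp-Arg-Gly. TRBD2 encodes Gly-Thr-Gly-Gly, Gly-Leu-Gly-Gly and Asp-Trp-Gly-Gly. Frame 1 therefore has 3 glycine codons in both segments, frame 2 has 2 in TRBD1 and 3 in TRBD2, and frame 3 has 1 in TRBD1 and 2 in TRBD2. Frame 3 of TRBD2 is the frame that holds a tryptophan codon. No frame of either segment holds a stop codon.

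The in-frame CDR3s below hold a whole D segment and, for each segment, have the most reads summed over the 4 libraries. The capital letters mark the bases aligned to the D segment, which can run past its ends into mirror-image bases.
TRBD1 with TRBV31 and TRBJ2-7: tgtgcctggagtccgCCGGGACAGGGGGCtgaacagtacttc
TRBD1 with TRBV19 and TRBJ2-1: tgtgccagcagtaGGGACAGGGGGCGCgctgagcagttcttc
TRBD2 with TRBV13-1 and TRBJ2-1: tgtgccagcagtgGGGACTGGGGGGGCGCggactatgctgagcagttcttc
TRBD2 with TRBV12-2 and TRBJ2-5: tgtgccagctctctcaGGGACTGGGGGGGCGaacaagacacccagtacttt

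The clones with TRBD1 encode CDR3s of 14 amino acids with 2 glycines and 1 glycine. The clones with TRBD2 encode CDR3s of 17 amino acids with 3 and 2 glycines. Each of the 4 was found in 1 library only, with 188, 124, 188 and 174 reads in the order shown. Whole D segments were rare, at a mean of 1.84% of the TRBD1 clones and 1.74% of the TRBD2 clones.

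The segments are short and alike, so the certainty of the calls was measured before any comparison. The aligned stretch had a median of 7 bases for TRBD1 and 9 bases for TRBD2 in each library, and the shortest had 5 bases. Stretches under 8 bases made up 57.4% to 59.2% of TRBD1 calls and 31.5% to 32.9% of TRBD2 calls. Both segments were listed as hits in 23.7% to 26.2% of TRBD1 clones and in 7.26% to 8.05% of TRBD2 clones. In 16.6% to 18.7% of TRBD1 clones both hits had the same score, and since TRBD1 was listed first in every such tie, no TRBD2 call was tied. Base 6 was covered without a mismatch in 78.2% to 80.6% of TRBD1 clones and in 80.04% to 81.8% of TRBD2 clones.

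TRBD1 was the most frequent D call, and its share was higher in both Tet2/3 DKO libraries than in both WT libraries. TRBD1 made up 40.8% and 40.9% of clones in WT, against 42.4% and 43.1% in Tet2/3 DKO. TRBD2 made up 31.3% and 31.7% in the WT and 30.0% and 29.4% in the Tet2/3 DKO libraries. The genotypes did not overlap for either segment. Clones with no D hit made up 27.8% and 27.5% in WT, against 27.7% and 27.5% in Tet2/3 DKO.

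The mean difference was 1.88 percentage points for TRBD1 (WT 40.9% ± 0.0113, Tet2/3 DKO 42.7% ± 0.485, SD, n = 2 each; exact two-sided permutation p = 0.333). With 2 libraries per genotype there are 6 assignments of the labels, and 0.333 is the smallest p they can give. For TRBD2 the mean difference, Tet2/3 DKO minus WT, was -1.81 percentage points with the same exact permutation p of 0.333. In all, 37 values of the D groups were compared between genotypes in this way, 15 of them (40.5%) did not overlap, and the lowest adjusted p was 0.822 (Benjamini-Hochberg). The TRBD1 difference is thus larger than the spread between replicates, and the exact test cannot pass a threshold of 0.05 in this design.

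**Figure D1:**
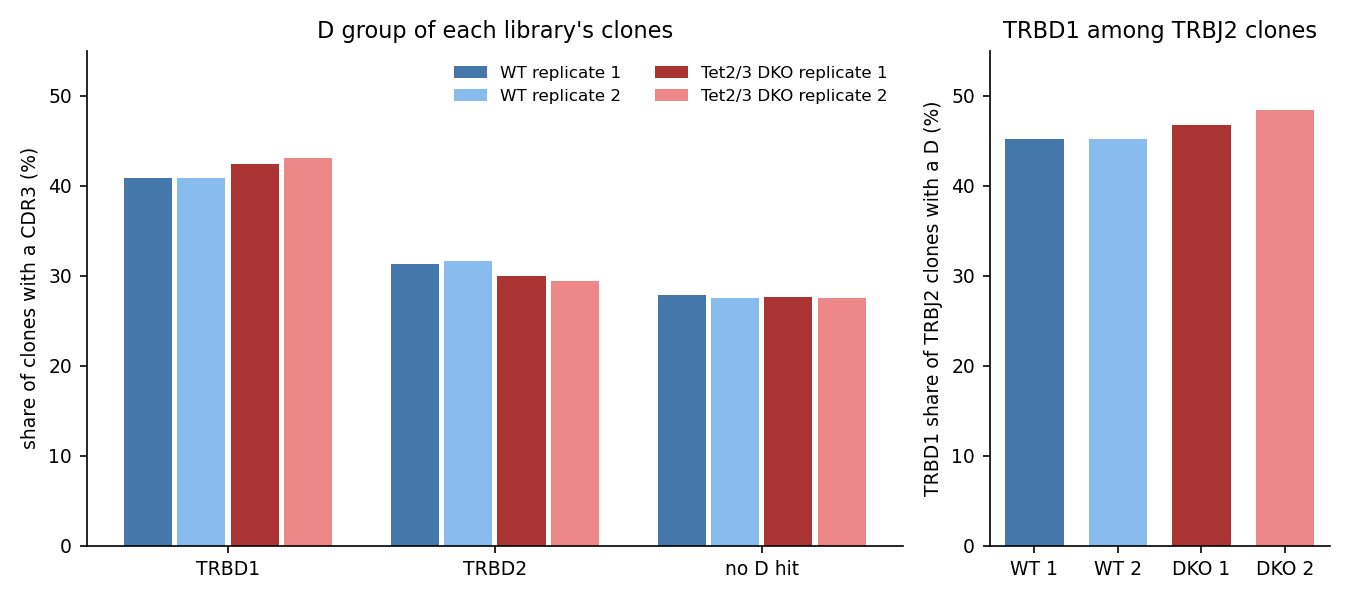
Left, the share of clones with a CDR3 (%) called TRBD1, TRBD2 or without a D hit, 1 bar per library; right, TRBD1 as a share (%) of the TRBJ2 clones that carry a D call. The TRBD1 bars are at 40.8% and 40.9% in the WT and at 42.4% and 43.1% in the Tet2/3 DKO libraries, and the right panel runs from 45.2% to 48.4%.

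The order of the segments depended on the length asked of a D hit, while the TRBD1 share stayed higher in Tet2/3 DKO. When hits under 8 bases were treated as empty, TRBD1 fell to 16.7% and 17.1% of clones in WT, against 17.8% and 18.4% in Tet2/3 DKO, below TRBD2 at 21.2% and 21.2% in the WT and 20.2% and 20.1% in the Tet2/3 DKO libraries. Weighted by reads, TRBD1 took 39.01% and 40.1% in WT, against 42.0% and 40.8% in Tet2/3 DKO, again without overlap. With tied hits left out, TRBD1 took 36.0% and 36.1% in WT, against 37.7% and 38.7% in Tet2/3 DKO. TRBD2 then took 33.9% and 34.2% in WT, against 32.4% and 31.7% in Tet2/3 DKO. Among clones out of frame or with a stop codon, which encode no receptor, TRBD1 took 40.2% and 38.8% in the WT and 40.4% and 41.8% in the Tet2/3 DKO libraries. TRBD2 took 35.0% and 37.3% of those clones in WT, against 35.3% and 33.9% in Tet2/3 DKO, where the genotypes overlapped.

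The J segments separated the D groups by position along the locus. TRBD1 was joined to both J clusters, with TRBJ1 segments in 39.6% and 38.6% of its clones in the WT and 40.9% and 38.5% in the Tet2/3 DKO libraries. TRBD2 was called with TRBJ1 segments in 4.27% and 4.10% of its clones in WT, against 4.53% and 4.004% in Tet2/3 DKO. Clones with no D hit used TRBJ1 at 36.8% and 35.4% in the WT and at 37.7% and 36.5% in the Tet2/3 DKO libraries, close to the TRBD1 clones.

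Within libraries the TRBJ1 share was 35.2 percentage points higher for TRBD1 than for TRBD2 (SD 0.875, n = 4 libraries; exact two-sided sign-flip permutation p = 0.125, the smallest that 4 libraries can give; adjusted p = 0.153 over 11 values). In 4 of 4 libraries TRBD1 was higher. The TRBJ1 share of each D group overlapped between genotypes. Seen from the J side, TRBD1 held 58.2% to 59.6% of all TRBJ1 clones and TRBD2 held 4.23% to 4.84%.

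Deletion does not join TRBD2 to TRBJ1 segments, yet 4881 TRBJ1 clones over the 4 libraries had a TRBD2 call. Whether these calls are true TRBD2 joins was not tested. The most frequent stretch was gggggg with 553 clones (11.3%), followed by ggggggg with 479 clones (9.81%) and tgggg with 450 clones (9.22%). When the stretch had to cover base 6 without a mismatch, TRBJ1 made up 1.65% and 1.65% of TRBD2 clones in WT, against 1.88% and 1.85% in Tet2/3 DKO. With at least 8 aligned bases in addition, 42, 53, 56 and 63 clones were left in the WT replicates 1 and 2 and the Tet2/3 DKO replicates 1 and 2, or 0.301% to 0.360% of such TRBD2 clones. TRBD1 clones under the same terms had a TRBJ1 share of 39.9% to 43.1%, against 40.5% to 42.9% with base 6 covered alone. The TRBJ1 share of the TRBD2 group thus fell as more was asked of the aligned stretch.

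TRBJ2 clones are those for which both segments compete. TRBD1 made up 45.2% and 45.2% of the TRBJ2 clones with a D call in the WT and 46.7% and 48.4% in the Tet2/3 DKO libraries. The difference was 2.36 percentage points, without overlap (exact permutation p = 0.333). It was 1.50 without Tet2/3 DKO replicate 2 and 3.22 without Tet2/3 DKO replicate 1, so the size rests in part on replicate 2. Weighted by reads, the shares were 43.5% and 45.3% in WT, against 47.2% and 46.5% in Tet2/3 DKO. With tied hits left out, they were 39.3% and 39.5% in WT, against 41.0% and 43.1% in Tet2/3 DKO.

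Single J segments followed nearly the same order in both D groups once the cluster was fixed. TRBJ2-7, the most 3′ J segment, was the most used partner of both, at a mean over the 4 libraries of 28.7% of the TRBJ2 clones of TRBD1 and 33.1% of those of TRBD2. TRBJ2-5 followed with 19.1% and 19.2%, and TRBJ2-1 took 15.2% and 15.04%. TRBJ2-3 took 12.5% of the TRBJ2 clones of each segment. TRBJ2-2 stood apart, with 10.1% of the TRBJ2 clones of TRBD1 and 5.55% of those of TRBD2. Its 4 libraries ranged from 9.84% to 10.6% for TRBD1 and from 5.25% to 5.81% for TRBD2, and it was named after its values were seen. These within-cluster shares are given as a description, with no test, and the part that the D call itself plays in them was not tested.

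Among TRBJ1 partners of TRBD1, TRBJ1-1, the nearest to TRBD1, was the most used at a mean of 30.0% of the cluster. TRBJ1-4 took 21.5% and TRBJ1-5 the least, 7.83%. As a share of all TRBD1 clones, TRBJ1-1 was at 11.5% and 11.2% in the WT and at 12.8% and 11.8% in the Tet2/3 DKO libraries. TRBJ2-7 was at 16.8% and 17.2% of TRBD1 clones in WT, against at 17.02% and 18.6% in Tet2/3 DKO. Of TRBD2 clones it took 30.3% and 29.9% in the WT and 31.9% and 34.6% in the Tet2/3 DKO libraries, where the highest library was again Tet2/3 DKO replicate 2.

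**Figure D2:**
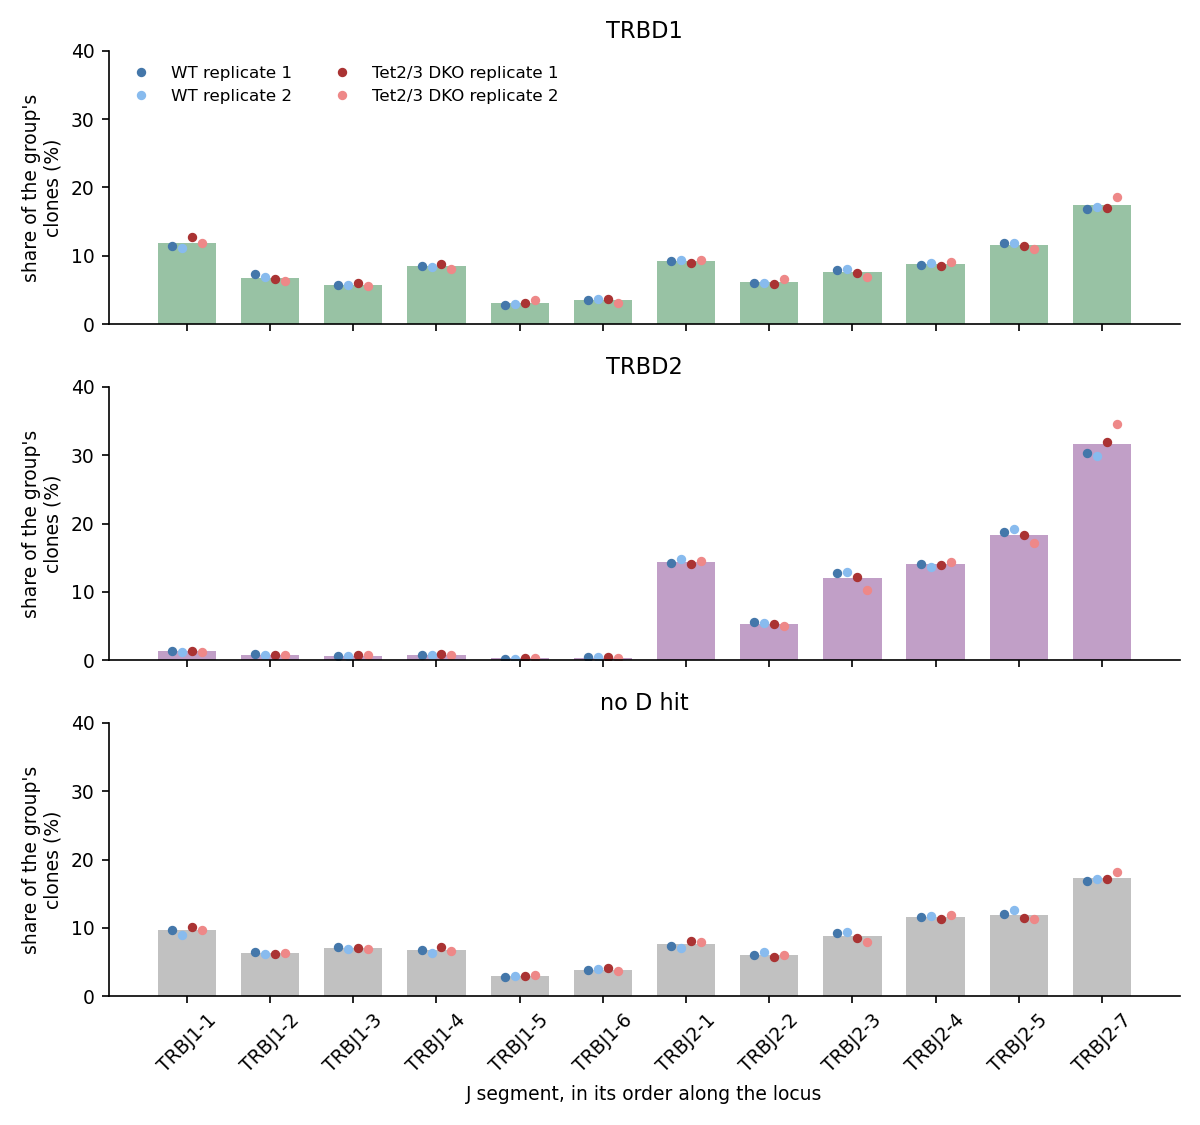
Share of each D group's clones (%) that use each J segment, with bars at the mean of 4 libraries and points for the single libraries. TRBD2 clones sit almost wholly on TRBJ2 segments, with TRBJ1 at 4.004% to 4.53% in sum, while TRBD1 clones and clones without a D hit spread over both clusters.

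Reads per pair of D group and J segment were tested between genotypes with edgeR's quasi-likelihood test. None of the 36 pairs passed an adjusted p of 0.05 (Benjamini-Hochberg), a background of 0%. At an unadjusted p under 0.05 there were 3 pairs (8.33%), 2 with TRBD1 and 1 with TRBD2, and DESeq2 also called 0 pairs. Without Tet2/3 DKO replicate 1 the test called 12 pairs and without Tet2/3 DKO replicate 2 it called 3, each time with a single library left in that genotype, whose spread is then assumed to equal that of WT. The genotypes did not overlap in 14 of all pairs (38.9%). They did not overlap in 4 of 12 TRBD1 pairs, all higher in Tet2/3 DKO, and in 5 of 12 TRBD2 pairs, all lower in Tet2/3 DKO. Over all pairs 6 of these were higher in Tet2/3 DKO (16.7%). The median log2 fold change, Tet2/3 DKO over WT, was 0.06 over the TRBD1 pairs, -0.09 over the TRBD2 pairs and -0.03 over all pairs.

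The pairs with the largest share of reads are given by name. TRBD2 with TRBJ2-7 held 9.58% and 9.46% of reads in WT, against 9.33% and 9.10% in Tet2/3 DKO (log2 fold change -0.05, SE 0.03, edgeR adjusted p = 0.647). TRBD1 with TRBJ2-7 held 6.71% and 6.97% in the WT and 7.20% and 7.73% in the Tet2/3 DKO libraries (log2 fold change 0.13, SE 0.05, edgeR adjusted p = 0.405). By reads the genotypes did not overlap for either pair, and neither passed the test. With each clone counted once the log2 fold change turned to 0.06 for TRBD2 with TRBJ2-7 and was 0.13 for TRBD1 with TRBJ2-7, and neither passed. TRBD1 with TRBJ1-1 held 4.46% and 4.28% in WT, against 5.18% and 4.92% in Tet2/3 DKO (log2 fold change 0.21, SE 0.09, edgeR adjusted p = 0.405). TRBD2 with TRBJ2-5 held 6.54% and 5.94% in the WT and 5.20% and 6.19% in the Tet2/3 DKO libraries, where the genotypes overlapped (log2 fold change -0.13, SE 0.09, edgeR adjusted p = 0.774). Without a D hit, TRBJ2-7 held 4.77% to 4.95% of reads and TRBJ2-5 held 3.17% to 4.65% over the 4 libraries.

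With each clone counted once in place of its reads, 4 of 36 pairs (11.1%) passed the same edgeR test, namely 2 of 12 with TRBD1, 2 of 12 with TRBD2 and 0 of 12 without a D hit. TRBD1 with TRBJ1-1 (log2 fold change 0.18, SE 0.06) and with TRBJ1-5 (0.27, SE 0.09) were higher in Tet2/3 DKO, each with an adjusted p of 0.0200. TRBD2 with TRBJ2-3 (-0.28, SE 0.06, adjusted p = 0.000546) and with TRBJ2-5 (-0.18, SE 0.06, adjusted p = 0.0200) were lower. These falls were not confined to TRBD2. As a share of each D group's clones, TRBJ2-3 was lower in Tet2/3 DKO without overlap in every group. The differences were -0.74 percentage points for TRBD1, -1.58 for TRBD2 and -1.02 with no D hit. For TRBJ2-5 they were -0.71, -1.25 and -0.976, also without overlap. Whether the falls belong to the J segment or to the pair was not tested. TRBD1 with TRBJ1-5 and TRBD2 with TRBJ2-3 were named after their values were seen.

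Trimming left a different part of each D segment in place. TRBD1 clones kept a mean of 7.08 and 7.12 germline D bases in WT, against 7.12 and 7.16 in Tet2/3 DKO. TRBD2 clones kept 8.67 and 8.66 in the WT and 8.69 and 8.73 in the Tet2/3 DKO libraries. TRBD1 kept 1.57 fewer bases than TRBD2 within libraries (SD 0.0209, n = 4; exact permutation p = 0.125, adjusted p = 0.153). The shortest stretch that gives a call has 5 bases and the segments differ in length, so these means cover what could be called and not all trimming. With hits under 8 bases as empty the difference, TRBD1 minus TRBD2, was -1.01 bases.

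The segments differed at their ends. At the 5′ end, which meets the V segment, TRBD1 had lost a mean of 2.08 to 2.13 bases and TRBD2 2.77 to 2.83 bases. At the 3′ end, which meets the J segment, TRBD1 had lost 2.74 to 2.81 bases and TRBD2 2.50 to 2.52. TRBD1 was thus shorter by fewer bases at 5′ (difference -0.699, SD 0.0296) and by more at 3′ (difference 0.266, SD 0.0377), each in the same direction in 4 of 4 libraries with an exact permutation p of 0.125. The 3′ difference depended on the clones used. It was 0.0389 bases where base 6 had to be covered without a mismatch, with TRBD1 below TRBD2 in Tet2/3 DKO replicate 2, and 0.441 bases among clones out of frame or with a stop codon. The 5′ difference was -1.18 bases with hits under 8 bases as empty. It was smaller where base 6 had to be covered, with 1.89 to 1.96 bases lost by TRBD1 and 2.38 to 2.45 by TRBD2. The first base of TRBD1 was kept in a mean of 34.9% of its clones and its last base in 14.8%. For TRBD2 these values were 22.1% and 19.2%.

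Counted over all clones of a segment, mirror-image bases past its end were more frequent at the 5′ end of TRBD1. They can be seen only where no base is missing at that end. At 5′ this held for 34.9% of TRBD1 clones and 22.1% of TRBD2 clones, so these shares are not independent of the trimming. A mean of 19.4% of TRBD1 clones had them at the 5′ end and 7.62% at the 3′ end, against 12.8% and 12.7% of TRBD2 clones. The best kept base was base 6 in TRBD1, at 89.0%, and base 8 in TRBD2, at 97.0%. The clones counted had at least 5 germline D bases, which favours central bases. The part that the calling plays in these peaks was not tested.

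**Figure D3:**
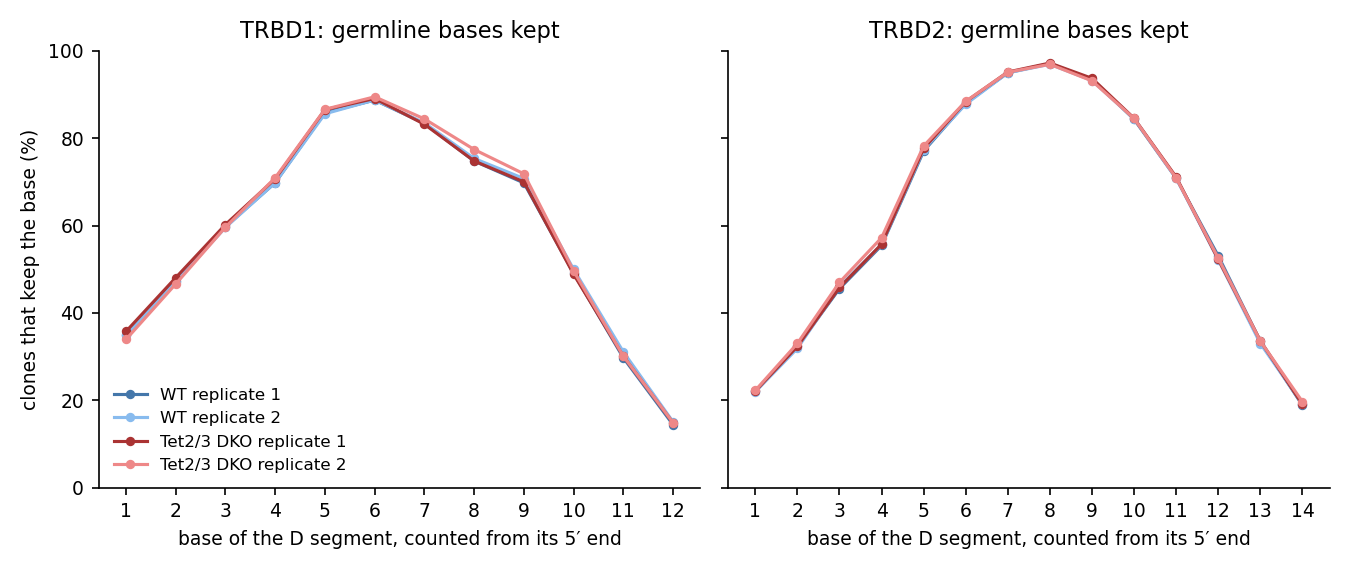
Share of clones (%) that keep each germline base of TRBD1 (left) and TRBD2 (right), counted from the 5′ end, 1 line per library. Only clones with at least 5 germline D bases are counted, which favours central bases. The 4 libraries lie nearly on one another, with a peak of 89.0% at base 6 of TRBD1 and of 97.0% at base 8 of TRBD2 and lower values toward both ends.

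Few bases had been added at either join. Between V and D, TRBD1 clones had a mean of 1.18 and 1.19 bases in WT, against 1.16 and 1.10 in Tet2/3 DKO, and TRBD2 clones had 1.24 and 1.26 in the WT and 1.22 and 1.17 in the Tet2/3 DKO libraries. Between D and J, TRBD1 clones had 1.15 and 1.18 in WT, against 1.14 and 1.00 in Tet2/3 DKO, and TRBD2 clones had 1.10 and 1.13 in the WT and 1.09 and 1.06 in the Tet2/3 DKO libraries. All 4 of these means were lower in both Tet2/3 DKO libraries than in both WT libraries, with differences, Tet2/3 DKO minus WT, from -0.0955 to -0.0390 bases, each with an exact permutation p of 0.333. Weighted by reads, the difference between D and J in TRBD2 clones turned to 0.0445 bases, and the genotypes overlapped for both TRBD1 means. Among clones out of frame or with a stop codon they also overlapped for both TRBD1 means. The TRBD1 differences there were -0.0278 bases between V and D and -0.116 between D and J. Without Tet2/3 DKO replicate 2 the TRBD1 differences were -0.0222 bases between V and D and -0.0255 between D and J, and those of TRBD2 were -0.0262 and -0.0205. Without Tet2/3 DKO replicate 1 they were -0.0840 and -0.165 for TRBD1 and -0.0818 and -0.0575 for TRBD2.

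Joins without any added base were most frequent in Tet2/3 DKO replicate 2. For TRBD1 they made up 18.7% and 18.2% of clones in WT, against 19.0% and 22.1% in Tet2/3 DKO. For TRBD2 they made up 18.8% and 18.2% in the WT and 18.8% and 20.0% in the Tet2/3 DKO libraries, where the genotypes overlapped. Weighted by reads, TRBD1 clones without added bases took 27.6% of the TRBD1 reads of Tet2/3 DKO replicate 2 and 19.9% to 21.3% in the other libraries. The TRBD1 difference between genotypes, 2.13 percentage points by clones, was 0.590 without that library and 3.66 without Tet2/3 DKO replicate 1. Tet2/3 DKO replicate 2 thus stood apart in this measure, by clones and by reads.

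Over all J segments, CDR3s with TRBD2 were longer than those with TRBD1. In-frame CDR3s of TRBD1 clones had a mean of 13.80 and 13.80 amino acids in WT, against 13.82 and 13.71 in Tet2/3 DKO. Those of TRBD2 clones had 14.30 and 14.31 in the WT and 14.33 and 14.24 in the Tet2/3 DKO libraries. Within libraries TRBD1 was shorter by a mean of 0.511 amino acids (TRBD1 minus TRBD2 -0.511, SD 0.0109, n = 4; exact permutation p = 0.125, adjusted p = 0.153). The segments differ in length and a call needs a stretch of D bases, so CDR3 length was not measured independently of the call. Among TRBJ2 clones alone the difference was -0.634 amino acids. Among TRBJ1 clones the order was the other way in 4 of 4 libraries, at a mean of 13.94 amino acids for TRBD1 (13.87 to 13.99) and 13.79 for the few TRBD2 clones (13.72 to 13.89), given with no test. Only 42 to 63 of these TRBD2 clones per library covered base 6 without a mismatch over at least 8 aligned bases. This order thus rests mostly on uncertain calls. Clones with no D hit were shortest, at 12.96 and 12.96 in WT, against 12.97 and 12.89 in Tet2/3 DKO, and since a D hit needs a stretch of D bases they were not tested against the others.

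The genotypes overlapped in CDR3 length in all 3 groups. In each of them Tet2/3 DKO replicate 1 was the longest library and Tet2/3 DKO replicate 2 the shortest, so the replicates of that genotype enclosed both WT libraries. The most frequent length was 14 amino acids for TRBD1, with a mean of 32.8% of in-frame clones, and also for TRBD2, with 32.3%. It was 13 for clones with no D hit, with 30.3%. At 16 amino acids the shares were 5.77% for TRBD1 and 11.99% for TRBD2, and at 12 amino acids they were 11.3% and 5.94%.

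Glycine content also differed between the groups. In-frame CDR3s of TRBD1 clones held a mean of 1.489 and 1.500 glycines in the WT and 1.502 and 1.482 in the Tet2/3 DKO libraries. Those of TRBD2 clones held 2.004 and 2.012 in WT, against 2.010 and 1.998 in Tet2/3 DKO. Those of clones with no D hit held 0.738 and 0.757 in the WT and 0.738 and 0.738 in the Tet2/3 DKO libraries. The difference between TRBD1 and TRBD2 was -0.513 glycines (SD 0.00363, n = 4; exact permutation p = 0.125, adjusted p = 0.153). The groups are formed from D bases that themselves encode glycine, so glycine content was not measured independently of the call. Clones with no D hit lack such a stretch by definition and were not tested against the others. CDR3s with 3 or more glycines made up 12.96% to 14.01% of TRBD1 clones, 27.9% to 28.3% of TRBD2 clones and 2.24% to 2.51% of clones with no D hit.

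Every reading frame of both segments was in use, each in 31.4% to 34.7% of in-frame clones as the mean of a genotype. In-frame TRBD1 clones read frames 1, 2 and 3 in 34.2%, 34.3% and 31.6% of cases in WT, against in 33.5%, 34.7% and 31.7% in Tet2/3 DKO (means of 2 libraries). In-frame TRBD2 clones read them in 34.5%, 31.4% and 34.004% in the WT and in 33.8%, 32.1% and 34.1% in the Tet2/3 DKO libraries. In out-of-frame clones the mean shares were 31.3%, 33.1% and 35.6% for TRBD1 and 31.5%, 33.4% and 35.1% for TRBD2. The SD over the 4 libraries was 0.451 to 1.87 percentage points there, with 1118 to 1645 clones per library and segment that were out of frame or had a stop codon.

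The residues of each frame were visible in the CDR3s. The frame was read from the same D bases that encode these residues, so the values are descriptions with no test. TRBD1 clones read in frames 1, 2 and 3 held 1.85 ± 0.0129, 1.62 ± 0.00805 and 0.996 ± 0.0146 glycines (SD, n = 4). TRBD2 clones held 2.26 ± 0.0132, 2.16 ± 0.00877 and 1.68 ± 0.00770. Glycine was thus highest in frame 1 and lowest in frame 3 for both segments, and it was higher for TRBD2 in each frame. A tryptophan was present in 88.6% ± 0.389 of TRBD2 CDR3s read in frame 3, against 20.5% ± 1.55 and 19.4% ± 1.72 in frames 1 and 2. For TRBD1 the values were 15.97%, 13.6% and 15.7% in frames 1, 2 and 3.

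**Figure D4:**
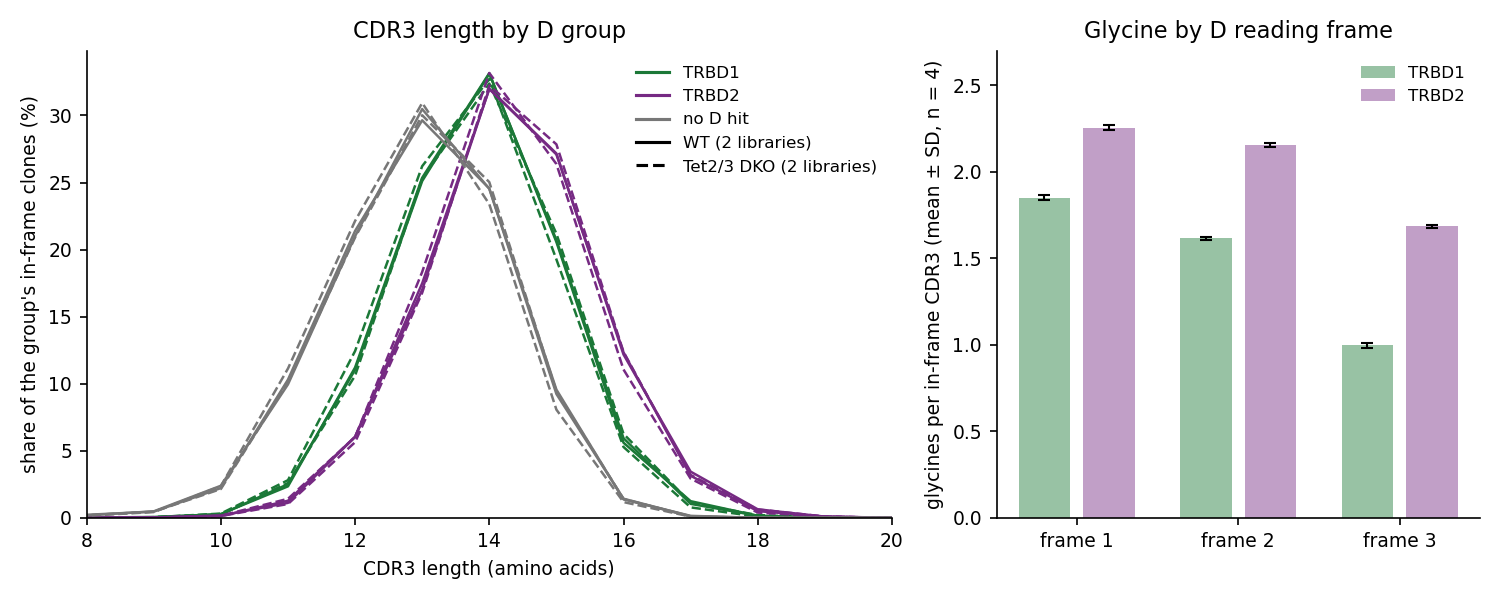
Left, CDR3 length (amino acids) against the share of in-frame clones (%) for each D group, solid for WT and dashed for Tet2/3 DKO libraries; right, glycines per in-frame CDR3 by D reading frame (mean ± SD, n = 4 libraries). The curves peak at 13 amino acids without a D hit and at 14 with TRBD1 or TRBD2, and the bars run from 0.996 for TRBD1 in frame 3 to 2.26 for TRBD2 in frame 1.

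Most clones of every group were in frame without a stop codon. The share was 96.1% and 96.6% for TRBD1 in WT, against 96.4% and 96.3% in Tet2/3 DKO. It was 95.5% and 95.8% for TRBD2 in the WT and 95.5% and 95.6% in the Tet2/3 DKO libraries. TRBD1 was higher by 0.728 percentage points (SD 0.149, 4 of 4 libraries; exact permutation p = 0.125, adjusted p = 0.153). The difference was 0.162 percentage points over clones with at least 2 reads, in the same direction in 4 of 4 libraries, and 0.0785 weighted by reads, where TRBD1 was lower in Tet2/3 DKO replicate 2. Out-of-frame joins made up most of the rest, with a mean of 3.44% for TRBD1 and 4.13% for TRBD2, while in-frame joins with a stop codon made up 0.227% and 0.269%.

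The V segment went with the choice of D segment over a wide range. Among TRBJ2 clones with a D call, the TRBD1 share was lowest with TRBV31, at 34.9% and 36.2% in WT, against 36.3% and 36.6% in Tet2/3 DKO. TRBV31 lies downstream of the J clusters in the opposite orientation and is joined by inversion. The share was highest with TRBV29, at 66.0% and 66.5% in the WT and 65.4% and 68.2% in the Tet2/3 DKO libraries. TRBV26 followed with 58.9% and 60.4% in WT, against 62.8% and 61.9% in Tet2/3 DKO. TRBV5, with 28029 such clones, was at 41.7% and 41.9% in the WT and 43.1% and 46.5% in the Tet2/3 DKO libraries. These spreads between V segments are far wider than those between libraries, and whether V-end bases contribute to the calls was not tested. TRBV29, TRBV26 and TRBV5 were named here for their place in this order or their number of clones.

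The genotype difference in TRBD1 share was seen across V segments. The mean TRBD1 share was higher in Tet2/3 DKO in 20 of 20 V segments with at least 1000 TRBJ2 clones with a D call, and 16 of the 20 (80%) did not overlap between genotypes. The V segments of a library share its cells and its preparation, so they are not replicates, and the comparison still rests on 2 libraries per genotype. The differences ran from 0.563 percentage points with TRBV29 to 6.19 with TRBV23, which had 1890 such clones.

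**Figure D5:**
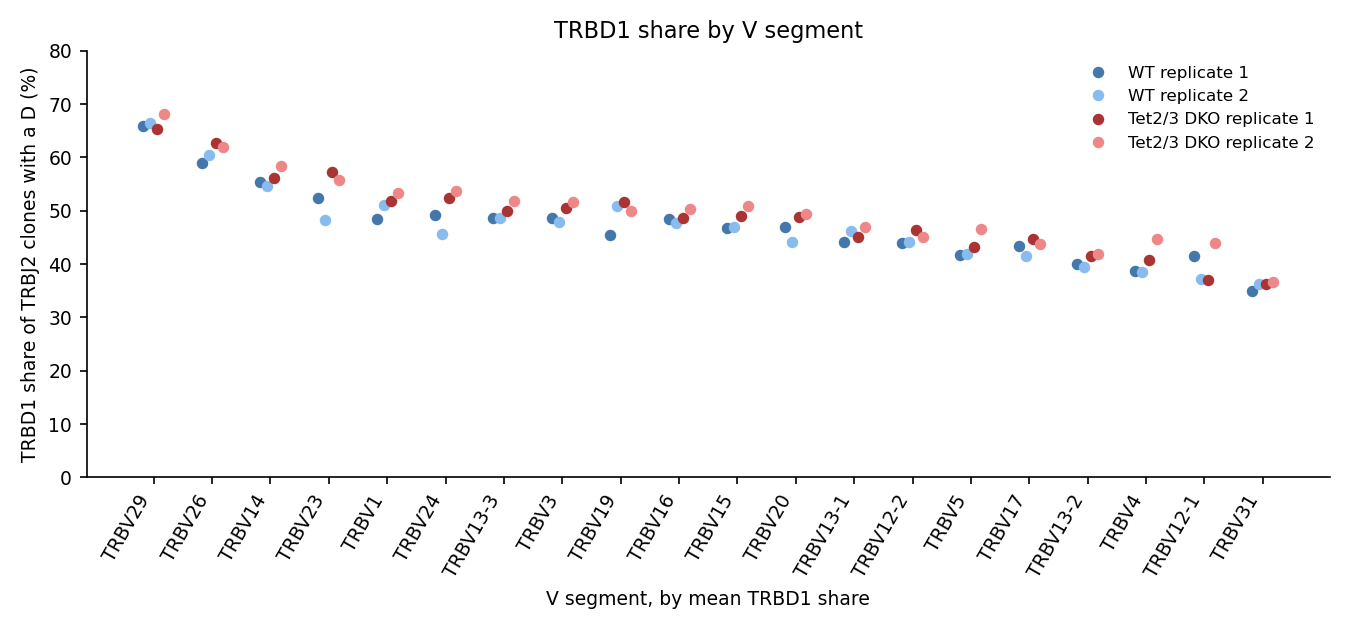
TRBD1 as a share (%) of TRBJ2 clones with a D call for each of 20 V segments, ordered by their mean, 1 point per library. The means run from 36.01% for TRBV31 to 66.5% for TRBV29, and the red Tet2/3 DKO points lie above the blue WT points without overlap in 16 of the 20 segments.

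Reads per pair of V segment and D group gave no call either. None of 72 pairs passed an adjusted p of 0.05 in edgeR's quasi-likelihood test (a background of 0%), while 11 pairs (15.3%) had an unadjusted p under 0.05 and DESeq2 called 0. The genotypes did not overlap in 29 pairs (40.3%), namely 12 of the 24 TRBD1 pairs, 10 of the 24 TRBD2 pairs and 7 of the 24 pairs without a D hit. Of all pairs, 13 (18.1%) were higher in Tet2/3 DKO without overlap, 8 of them with TRBD1 and 2 with TRBD2. TRBV31 with TRBD2 held 5.66% and 5.69% of reads in WT, against 5.63% and 6.19% in Tet2/3 DKO (log2 fold change 0.06, SE 0.18, edgeR adjusted p = 0.868). With each clone counted once its log2 fold change turned to -0.25 (edgeR adjusted p = 0.598). TRBV31 with TRBD1 held 5.34% and 5.68% in the WT and 5.67% and 4.75% in the Tet2/3 DKO libraries (log2 fold change -0.08, SE 0.18, edgeR adjusted p = 0.819). TRBV5 with TRBD1 held 5.61% and 5.93% in WT, against 6.22% and 4.64% in Tet2/3 DKO, and TRBV5 with TRBD2 held 4.44% and 4.76% in the WT and 4.55% and 3.61% in the Tet2/3 DKO libraries. In these 4 pairs the genotypes overlapped. Without a D hit, TRBV5 held 2.90% to 3.998% of reads and TRBV31 held 3.10% to 3.78% over the 4 libraries.

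The most abundant clones of each segment differed from library to library in V segment and in the part of D that they kept. The TRBD2 clone with the most reads was found in Tet2/3 DKO replicate 2, with 7419 reads or 1.30% of that library (Wilson 95% interval 1.27% to 1.33%), and the most abundant TRBD1 clone of the same library had 2106 reads or 0.370% (0.354% to 0.386%). The former is shown with the most abundant TRBD1 and TRBD2 clones of WT replicate 1, which had 856 reads (0.234%, 0.219% to 0.250%) and 2693 reads (0.737%, 0.710% to 0.765%). In the most abundant TRBD1 clone of Tet2/3 DKO replicate 2 the aligned stretch was ggggg, which lacks base 6 and also occurs in TRBD2. The capital letters again mark the bases aligned to D.
TRBD2 with TRBV31 and TRBJ2-5, Tet2/3 DKO replicate 2: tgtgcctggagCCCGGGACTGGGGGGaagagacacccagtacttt
TRBD1 with TRBV20 and TRBJ1-3, WT replicate 1: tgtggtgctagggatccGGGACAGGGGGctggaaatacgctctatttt
TRBD2 with TRBV20 and TRBJ2-5, WT replicate 1: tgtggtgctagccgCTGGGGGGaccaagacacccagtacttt

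The TRBV31 clone kept 12 of the 14 bases of TRBD2, read in frame 2, and encodes 15 amino acids with 3 glycines. The TRBV20 clone with TRBD1 kept 11 of 12 bases, was joined without an added base on either side and encodes 16 amino acids with 4 glycines. The TRBV20 clone with TRBD2 had lost the first 4 bases and the last 2, was read in frame 3 and encodes 14 amino acids. In WT replicate 2 and Tet2/3 DKO replicate 1 the most abundant clones of either segment held 0.0904% to 0.237% of reads.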

How the data were processed

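TCRβ was sequenced from splenic CD4 T cells of 2 WT and 2 Tet2/3 DKO mice. The authors assembled clones with MiXCR, which aligns to its own segment library, after adapter trimming in fastp 0.21.0, and per the labels bcl2fastq 2.20.0 and the build mm10 were also used. They deposited 1 table per library with the raw count of reads per clone, its segment hits with scores, and its CDR3. The tables of TCRα were not used here. Neither D nor J calls were made anew.

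The lowest D hit score was 25, or 5 aligned bases at 5 per base. MiXCR aligned D against the segment flanked by its mirror image, and germline bases were counted within the segment only. The part of D kept and the bases added were measured over clones with at least 5 germline D bases. The ends of V and J also had to lie inside the CDR3 without overlapping D. The D reading frame shares of in-frame clones were taken over those with any germline D base. The depth was 365421 to 569678 reads per library.

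Genotypes were compared by exact two-sided permutation of the library labels, and TRBD1 with TRBD2 within libraries by exact sign-flip tests, with Benjamini-Hochberg adjustment. Reads per D-J and V-D pair were tested with edgeR 4.0.16 (quasi-likelihood), with all reads with a CDR3 as library size, over pairs with at least 10 reads and at a threshold of 0.05. DESeq2 1.42.0 was an alternative. The edgeR test was tried on simulated counts with larger changes than those seen here, and the exact tests on fixed example values. These trials do not show how well small differences would be found. Intervals are Wilson 95% intervals. Python 3.11.15, numpy 2.4.6 and R 4.3.3 were used.

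The segments and lists were chosen with earlier results of these data known. The pairs given by their share of reads are those with the largest mean share of each D group and TRBV31, and TRBD2 with TRBJ1 is given as a sum. The other pairs and segments, in the J profiles, the test by clones and the V segment order, were named after their values were seen. The clones named are the most abundant of each segment per library and in-frame clones with a whole D. Alternatives weighted clones by reads, merged or filtered them, drew libraries down, left out tied, short or abundant hits, and left out each library. Those that asked for base 6, took TRBJ2 clones alone or crossed the replicate numbers were chosen after seeing the data.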

Additional observations from a re-analysis of the deposited data

How the results depend on the processing

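The TRBD1 share of clones stayed higher in Tet2/3 DKO under every alternative that was run, by 1.16 to 2.80 percentage points, and the TRBD1 share of TRBJ2 clones with a D call by 1.50 to 3.22. The higher TRBJ1 share of TRBD1 clones and the longer, more glycine-rich CDR3s of TRBD2 clones also kept their direction under the alternatives run. Within TRBJ1 clones, which was not among them, TRBD1 CDR3s were the longer ones (13.94 against 13.79 amino acids). The exact tests cannot pass a threshold in this design, so only signs and sizes could change, and where they did the cause was not tested. The limits are 2 libraries per genotype, short D stretches and ties that go to TRBD1.

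The signs that turned belong to small differences between genotypes that overlapped in most cases, given as Tet2/3 DKO minus WT in percentage points for shares. Weighted by reads, TRBD1 turned to 0.00386 glycines, 0.177 in the share with 3 or more glycines, 0.0414 bases lost at 5′ and -0.665 in frame 2. TRBD2 turned to -0.0148 in TRBJ1 share, 0.00778 amino acids in length, 0.0703 in the in-frame share, 0.0247 glycines, 1.39 in the share with 3 or more, 0.0445 bases between D and J and -2.99 in frame 3. Clones with no D hit turned to 0.457 in their share and 0.0412 in the in-frame share. With at least 2 reads per clone, TRBD1 gave 0.0014 glycines, TRBD2 gave 0.0173 in the in-frame share and -0.131 in frame 3, and clones with no D hit gave 0.0141 in their share and 0.00336 in the in-frame share. With hits under 8 bases as empty, TRBD1 gave 0.0082 bases lost at 5′, 0.21 in frame 1 and -0.399 in frame 2, TRBD2 gave -0.122 in TRBJ1 share and -0.378 in frame 3, and clones with no D hit gave 0.0194 in the in-frame share. Drawn down to the smallest library, the in-frame share gave 0.0297 for TRBD1, 0.0324 for TRBD2 and 0.00738 with no D hit, and frame 3 of TRBD2 gave -0.0153. With clones of the same V, J and CDR3 merged, the in-frame share of TRBD1 gave 0.00141 and frame 3 of TRBD2 gave -0.0147. Without tied hits, TRBD1 gave 0.0121 in the in-frame share, 0.000325 glycines and -0.0601 in frame 3. With base 6 covered, TRBD1 gave 0.00949, 0.00378 and -0.211 for the same values and TRBD2 gave 0.0936 in the share with 3 or more glycines. Among out-of-frame clones or those with a stop, TRBD1 gave -1.33 in TRBJ1 share and TRBD2 gave 0.0115 bases lost at 3′, and among TRBJ2 clones alone TRBD1 gave 0.0116 bases lost at 3′.

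Between the segments, TRBD1 minus TRBD2 turned for the bases between D and J to -0.0542 with hits under 8 bases as empty and to -0.0144 among out-of-frame clones. It turned for the share without an added base to -0.0969 with base 6 covered, and ranged from -0.00333 to 0.754 when 1 library was left out.

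Leaving out each library in turn, TRBD1 ranged from -0.59 to 1.81 in TRBJ1 share, -0.0868 to 0.0219 in length, -0.253 to 0.247 in the in-frame share, -0.0121 to 0.00736 in glycines, -0.802 to 0.244 in the share with 3 or more, -0.0456 to 0.0154 in bases lost at 3′, -1.27 to 0.0707 in frame 1 and -0.226 to 0.533 in frame 3. TRBD2 ranged from -0.181 to 0.35 in TRBJ1 share, -0.0675 to 0.0279 in length, -0.208 to 0.00327 in the in-frame share, -0.0101 to 0.00151 in glycines, -0.278 to 0.113 in the share with 3 or more and -0.478 to 0.64 in frame 3. Clones with no D hit ranged from -0.24 to 0.109 in their share, -0.0724 to 0.0122 in length, -0.225 to 0.182 in the in-frame share and -0.0193 to 7.25e-05 in glycines.

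In edgeR's quasi-likelihood test the D-J pairs gave 4 calls with each clone counted once, 5 without the 10 most abundant clones and 0 to 12 when 1 library was left out, with 12 without Tet2/3 DKO replicate 1 and 3 without Tet2/3 DKO replicate 2. The V-D pairs gave 0 calls in every setting. With a replicate block both tables gave 0 calls. The replicate numbers share only a number. The deviations of same-numbered libraries correlated at -0.21 over the D-J pairs and 0.18 over the V-D pairs, which are pairs of segments and not independent, and the crossed pairing gave 0 calls for the D-J pairs.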

Other observations

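Some TCRβ rearrangements were found in all 4 libraries, with identical V and J segments and identical CDR3 nucleotides. There were 636 such combinations, 177 with TRBD1, 160 with TRBD2 and 299 with no D hit. They made up a mean of 0.524% of the TRBD1 combinations of a library, 0.642% of the TRBD2 combinations and 1.36% of those with no D hit. Of the shared combinations, 77.4% with TRBD1 and 75% with TRBD2 had no base added between V, D and J, against 18.2% to 22.1% of all TRBD1 clones and 18.2% to 20.0% of all TRBD2 clones. These values are descriptions with no test.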
